A study of Mus musculus with 4 samples.

Results

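The sites described here are stretches of the mouse genome that carried a BAP1 peak and an OGT peak but no HCF1 peak. They were chosen by the presence and absence of peaks in 3 lists from chromatin immunoprecipitation and sequencing (ChIP-seq): overlapping or touching peaks were joined into regions, and on chromosomes 1 to 19 there were 295 such regions among 34244, 0.861% (95% interval 0.766 to 0.965%). The study mapped the 3 proteins in primary macrophages grown from bone marrow of C57BL/6 mice in medium conditioned by L929 cells, with no later treatment. For BAP1 the antibody was directed against FLAG and the cells were BAP1-3X Flag Tagged KI, in which BAP1 carries that tag; HCF1 and OGT were precipitated with antibodies to the proteins themselves from BAP1 WT cells, which also gave the input. There was 1 library for each protein and 1 input library, so no value has a replicate error, and what is particular to BAP1 peaks cannot be told apart from the genotype of the cells they came from. The name of the deposited BAP1 list refers to wild-type cells, whereas the labels give the tagged knock-in; the labels were followed.

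BAP1 is a nuclear deubiquitinase that, with ASXL partners, removes ubiquitin from histone H2A, and its loss in mice has been tied to disease of the myeloid lineage. HCF1 is a cofactor that does not itself read DNA sequence and is brought to promoters by other factors; BAP1 binds it through a short HCF-binding motif. OGT attaches the sugar O-GlcNAc to nuclear proteins, modifies HCF1 and takes part in its cleavage, and also binds other chromatin proteins, among them TET enzymes. The lists are in build mm9 and no genome or gene table of that build was used, so regions are given by position, and no gene, promoter or sequence is assigned to them. For the same reason macrophage marker genes could not be looked up in the lists.

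With peaks at their full width, most regions with BAP1 and OGT also held an HCF1 peak. Of the 5986 regions with both proteins, 4.93% (4.39 to 5.51%) had no HCF1 peak. Among regions with BAP1 but no OGT the share was 37.1% (36.2 to 38.0%), and among those with OGT but no BAP1 it was 45.1% (43.3 to 46.8%). The share for both proteins depends on peak width and score: it was 30.5% (28.9 to 32.1%, 996 of 3269) when only the central 200 bp of each peak was kept, 2.93% with a score of at least 100 in all lists and 0.897% with that minimum for BAP1 and OGT only. The shares for regions with BAP1 but no OGT, and OGT but no BAP1, were not recomputed at these settings. The 295 regions held 297 BAP1 peaks, 1.71% of those on chromosomes 1 to 19, and 299 OGT peaks, 2.92% of those. In 289 regions there was 1 peak of each protein, in 4, on chromosomes 2, 2, 4 and 8, there were 2 OGT peaks, and in 2, on chromosomes 11 and 14, there were 2 BAP1 peaks. These figures, and the scores and widths below, come from the same peak calls that chose the regions, so they are given as a description and no test was run on them. The intervals are exact binomial ones, cover counting error only, and treat regions as independent although neighbours are not.

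With peaks at full width and no score minimum, the scores of both proteins in these regions had medians below the middle of their lists. The score is the number the authors deposited for each peak. It was compared only within a list, as a percentile: the share of that list's peaks that score no higher, using the highest peak where a region has several. BAP1 scores ran from 50.03 to 532.41 with a median of 91.65, and OGT scores from 50.07 to 924.83 with a median of 68.31. As percentiles, the median was 39.3 (36.0 to 43.8) for BAP1 and 33.1 (30.3 to 35.8) for OGT. In regions with all 3 proteins the medians were 74.4 and 61.7, and BAP1 peaks alone and OGT peaks alone stood lower, at 23.8 and 23.2. With these peaks the BAP1 and OGT medians lay between those of lone peaks and of fully shared sites. BAP1 regions with HCF1 but no OGT, at a BAP1 median of 52.1, and OGT regions with HCF1 but no BAP1, at an OGT median of 47.4, also stood higher than they did. With peaks trimmed to 200 bp the regions without HCF1 had medians of 65.2 for BAP1 and 55.5 for OGT, and with a score of at least 100 in all lists 62.0 and 72.3. Percentiles were kept from the full lists, so that minimum itself removes the lower ones. A BAP1 score of 100.17 stands at percentile 44.1 and an OGT score of 100.65 at 58.9.

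**Figure D1:**
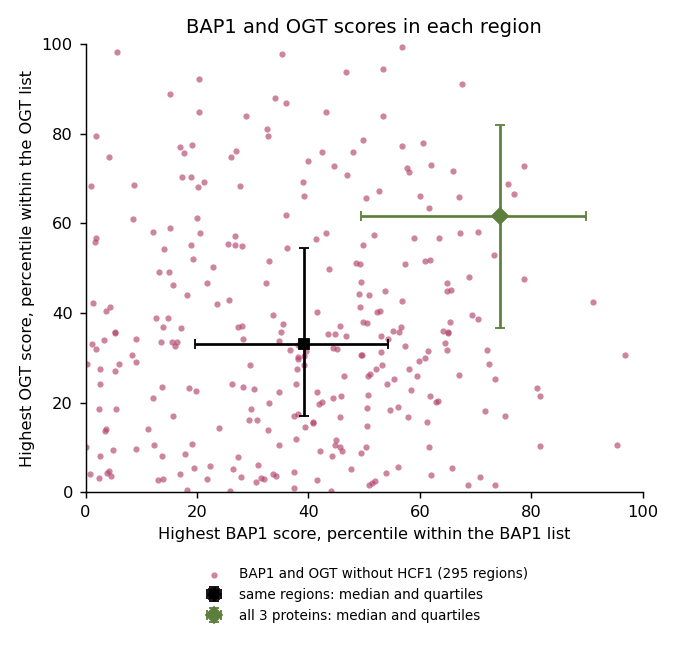
Each point is 1 of the 295 regions, with the percentile of its highest BAP1 score on the x axis and of its highest OGT score on the y axis; squares and diamonds with bars give medians and quartiles. Both percentiles are under 50 for 139 of the points, and the medians are 39.3 and 33.1, against 74.4 and 61.7 for regions with all 3 proteins.

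At full peak width, 27 of the 295 regions (9.15%, 6.12 to 13.0%) were at or above the 50th percentile in both lists, compared with 2815 of 5691 (49.5%) with all 3 proteins. Above the 90th percentile there were 3 regions for BAP1 (1.02%) and 7 for OGT (2.37%). Among regions with all 3 proteins these shares were 24.5% and 14.2%. No region was above it in both lists (0 of 295, upper bound 1.24%), but with so few in each list this says little. This depends on peak width: with peaks trimmed to 200 bp, 208 of the 608 footprints with the highest lower percentile, all above 70.7, had no HCF1 peak (34.2%), against 36.2% in the lowest of 5 such classes. Trimming shortens the HCF1 peaks too: of all 996 trimmed regions without HCF1, 790 lay within full-width regions with all 3 proteins. Across the 289 regions with 1 peak of each, the 2 scores had a Spearman rho of 0.04, and across the 4706 regions with HCF1 and 1 peak of each of the others it was 0.22. Both values run across regions of the same libraries and are given as a description. The score quartiles lay closer together in the 295 regions, at 65.81 and 123.32 for BAP1 and 57.22 and 92.97 for OGT. With all 3 proteins they were 111.58 and 328.81 for BAP1 and 71.5 and 179.13 for OGT. No rho was computed at like scores, so the 2 values cannot be compared directly.

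Ranked by the lower of its 2 percentiles, the first region lay on chromosome 11, 93682527 to 93683716 in mm9. Its BAP1 score was 223.39 (percentile 78.6) and its OGT score 133.97 (72.7). The OGT peak of 932 bp lay wholly inside the BAP1 peak of 1190 bp, and the nearest HCF1 peak, with a score of 74.36, was 38.8 kb away. The second, on chromosome 19, 42202885 to 42204902, had scores of 205.94 and 121.87 and centres 4.0 bp apart. Here an HCF1 peak with a score of 95.53 lay 178 bp beyond the region, under another BAP1 peak. The third, on chromosome 12, 73944829 to 73945905, paired a BAP1 score of 165.49 with an OGT score of 283.34, and HCF1 was 82.5 kb away. The fourth, on chromosome 1, 138027231 to 138028405, had 211.49 and 116.21 and an HCF1 peak 57 bp away. Ranks 5 to 9 lay on chromosomes 7, 8, 7, 6 and 11, with gaps to HCF1 between 5.2 and 37.7 kb, and rank 10, on chromosome 18, had an HCF1 peak 236 bp away. The strongest paired peaks were therefore of both kinds: 3 of the 10 had HCF1 within 250 bp and 7 had none within 5 kb. Over all 295 regions, HCF1 lay within 250 bp of 20 (6.78%) and within 5 kb of 119 (40.3%).

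**Figure D2:**
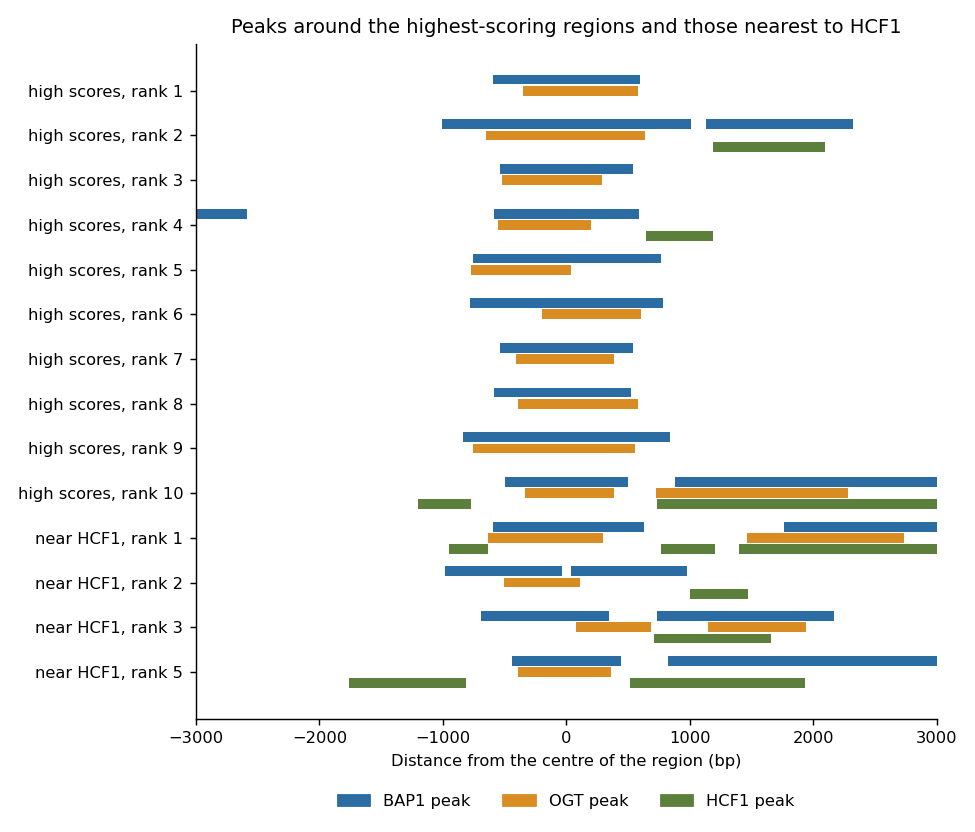
Bars show BAP1, OGT and HCF1 peaks around the 10 regions with the highest lower percentile and 4 of the 5 nearest to HCF1 (the one left out is rank 4 of the high scores), with distance from the region's centre in bp on the x axis. In most rows the OGT bar lies within the BAP1 bar; HCF1 bars appear within 3 kb in ranks 2, 4 and 10 of the high scores and in each of the others.

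The OGT peak usually sat within the BAP1 peak. This arrangement was found in 212 regions (71.9%, 66.4 to 76.9%), the peaks were staggered in 79, and the BAP1 peak lay inside the OGT peak in 4, on chromosomes 3, 7, 10 and 17. Every pair shared bases, from 61 to 1314 bp with a median of 701 bp. BAP1 peaks had a median width of 1088 bp here and OGT peaks 710 bp, against 1625 and 1014 bp in regions with all 3 proteins, and 974 and 625.5 bp where each protein was alone. BAP1 and OGT peaks in these regions were thus somewhat wider than lone ones and clearly narrower than fully shared ones. Their centres were a median of 106.5 bp apart (95.5 to 129.0 bp, quartiles 54.25 and 232.0 bp), and within 250 bp of each other in 229 regions (77.6%). In the 4706 regions with HCF1 and 1 peak of each other protein the median distance was 184.5 bp, but those are wider. Among regions of 998.5 to 1444.5 bp, the middle range of the BAP1 and OGT regions, the medians were 104.0 bp (91.0 to 125.0 bp, 147 regions) without HCF1 and 93.0 bp (84.5 to 100 bp, 929 regions) with it. At like region width the intervals of the medians overlapped. Region width includes the HCF1 peak where there is one, so the BAP1 and OGT peaks themselves were not matched in width. Within that range the BAP1 scores had medians of 97.08 without and 111.51 with HCF1, and the OGT scores 67.9 and 82.86.

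With peaks at full width, low-scoring and narrow sites lacked HCF1 most often. To keep HCF1 peaks out of the width, BAP1 and OGT peaks were also merged on their own, which gave 6042 footprints with both proteins. They were split into 5 classes of equal size by the lower of the 2 percentiles. No HCF1 peak touched 143 of 1209 (11.8%, 10.1 to 13.8%) in the lowest class. The next classes gave 7.62%, 3.73% and 1.24%, and the highest gave 0 of 1209 (upper bound of the interval 0.305%). In 5 classes by width, the share went from 15.2% (13.2 to 17.4%) of the narrowest, 471 to 1254 bp, to 0.165% of the widest. Score and width go together. With 4 classes by width, the narrowest had 18.1% (15.5 to 21.1%) without HCF1 on the lower-scoring side of the class median and 8.73% (6.82 to 11.0%) on the higher-scoring side, and the next had 6.62% and 1.72%. The order by score did not hold when every peak was trimmed to 200 bp around its centre. The 5 score classes, cut anew among the trimmed footprints, gave 36.2%, 33.1%, 30.3%, 30.1% and 34.2%. The intervals of the lowest and the highest overlap. The part of peak width in the order by score was not tested further.

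**Figure D3:**
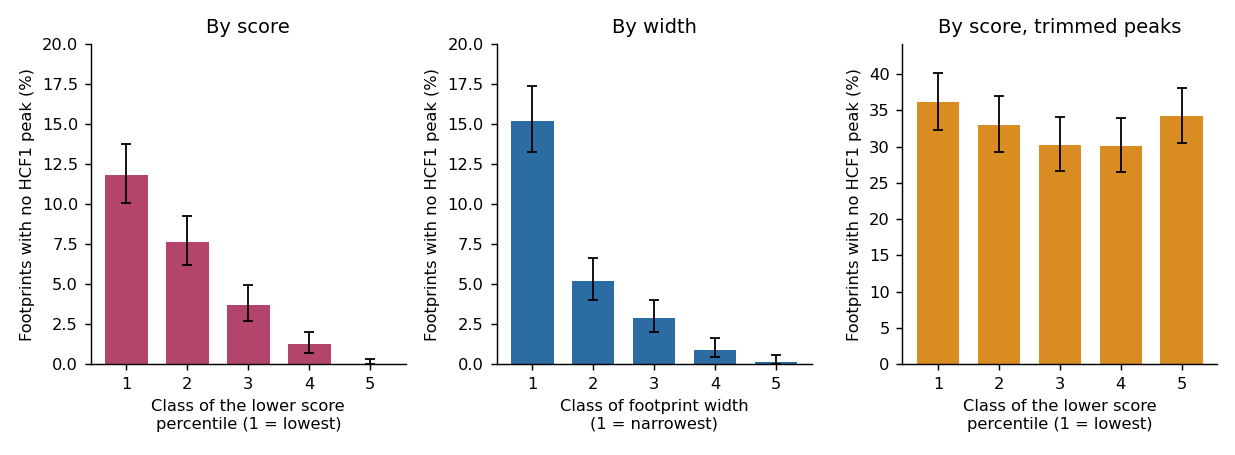
Bars give the percentage of BAP1 and OGT footprints that no HCF1 peak touches, with exact 95% intervals, in 5 classes of the lower score percentile, of footprint width, and of the lower percentile with peaks trimmed to 200 bp (the y axes differ). The share falls from 11.8% to 0 by score and from 15.2% to 0.165% by width, and is 36.2% and 34.2% at the 2 ends with trimmed peaks.

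Close to the edge of the rule, regions on either side had scores in the same range. The nearest HCF1 peak to any of the 295 regions lay 7 bp from the region on chromosome 8, 107868579 to 107869838, whose scores were 130.01 for BAP1 and 153.36 for OGT, and it scored only 53.13. Gaps of 20, 22, 57 and 74 bp followed, on chromosomes 11, 15, 1 and 16, and in all 9 regions had HCF1 within 100 bp. Just outside the rule, on chromosome 6, 83403071 to 83404731, an HCF1 peak with a score of 51.46 covered 7 bp of the BAP1 peak and none of the OGT peak. On chromosome 5, 34829679 to 34830797, the HCF1 score was 50.07, the lowest in any region with all 3 proteins and close to the list's minimum of 50, with 66.76 for BAP1 and 57.02 for OGT. In 66 regions with all 3 proteins (1.16%) the highest HCF1 score was under 60. Their BAP1 and OGT medians, 90.86 (76.75 to 103.44) and 74.73 (63.97 to 84.0), were near the 91.65 and 68.31 of the regions without HCF1. For each region the BAP1 and OGT peaks that shared most bases were taken as its pair. In 121 regions with all 3 proteins (2.13%, 1.77 to 2.54%) no HCF1 base lay in an overlap of that pair. They include regions whose BAP1 and OGT peaks shared no base, among them 47 with 1 peak of each. The 121 regions were wider than the 295, with a median of 2195 bp (2017 to 2449 bp) against 1156 bp. They had a median BAP1 score of 111.93 (94.3 to 141.74) against 91.65. Their median HCF1 score was 178.68 (126.75 to 243.54). HCF1 touched only the BAP1 peak of the pair in 63 of the 121, only its OGT peak in 6 and both in 52.

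HCF1 was usually not far away. The median gap to the nearest HCF1 peak was 7415 bp (5646 to 8558 bp, quartiles 1615 and 21507 bp), compared with 11600 bp (10886 to 12270 bp) from BAP1 peaks alone and 6991 bp (6389 to 8021 bp) from OGT peaks alone. An HCF1 peak lay within 1 kb of 50 regions (16.9%, 12.8 to 21.7%), within 5 kb of 119 (40.3%, 34.7 to 46.2%) and within 50 kb of 268 (90.8%, 87.0 to 93.9%). Within 5 kb the share was 32.0% (30.6 to 33.5%) for BAP1 alone and 42.2% (39.6 to 44.8%) for OGT alone. In their distance from HCF1 these regions were closer to lone OGT peaks than to lone BAP1 peaks. The gap depends on the peaks used. Its median was 14628 bp, with 29.3% of regions within 5 kb, at a score of at least 100 in all lists, which also removes HCF1 peaks. With that minimum for BAP1 and OGT only it was 6105 bp (3190 to 19905 bp, 23 regions), with 34.8% within 5 kb. For trimmed peaks it was 219.0 bp, with 87.0% within 5 kb. In windows reaching 50 kb to each side they had a median of 4 BAP1, 4 HCF1 and 3 OGT peaks, their own included. Lone BAP1 regions had 3, 3 and 1, lone OGT regions 2, 4 and 2, and regions with all 3 proteins 4, 6 and 3, also with their own peaks.

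**Figure D4:**
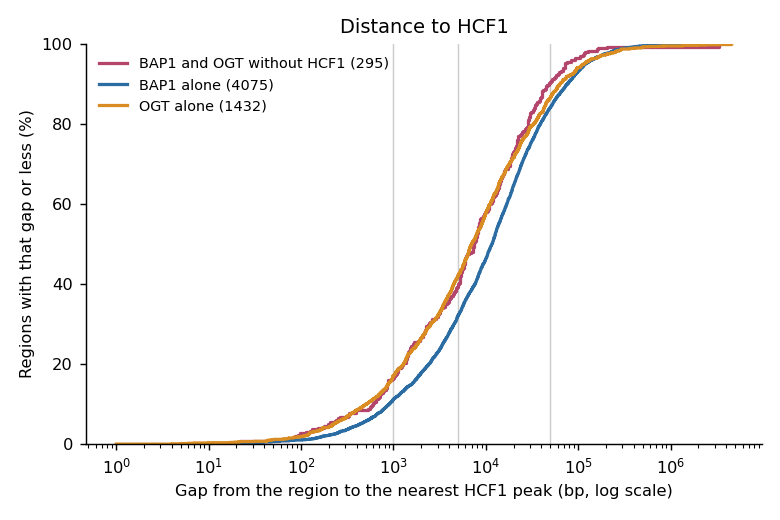
Curves show the percentage of regions (y axis) whose gap to the nearest HCF1 peak is at most the value on the x axis, in bp on a log scale, for BAP1 and OGT without HCF1, BAP1 alone and OGT alone; grey lines mark 1, 5 and 50 kb. The first curve runs with that of OGT alone up to about 10 kb, and at 5 kb the 3 stand at 40.3%, 32.0% and 42.2%.

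The neighbouring HCF1 peaks were ordinary ones. Their median score percentile was 44.9 (39.7 to 51.0), and 47.4 and 47.5 beside BAP1 alone and OGT alone. They belonged to regions of HCF1 alone for 132 of the 295 regions (44.7%), to regions with all 3 proteins for 74 (25.1%, 20.2 to 30.4%), to BAP1 and HCF1 regions for 69 and to HCF1 and OGT regions for 20. Of all HCF1 peaks on these chromosomes 23.2% were in regions with all 3 proteins, so these neighbours were not drawn mainly from fully shared sites. A region with all 3 proteins lay within 5 kb of 40 of the 295 (13.6%, 9.87 to 18.0%), against 11.7% for BAP1 alone and 15.7% for OGT alone. Where HCF1 was within 5 kb, the OGT centre was the one nearer to it in 62 of 119 regions (52.1%, 42.8 to 61.3%), so neither protein was shown to lean towards HCF1. Scores changed little with the gap. The BAP1 percentile had a median of 40.0 (27.1 to 50.4) in the 50 regions within 1 kb and 37.4 (25.8 to 50.5) in the 27 regions over 50 kb away, and the OGT percentile 32.1 (23.4 to 41.2) and 37.2 (15.4 to 49.0).

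A few regions were far from any HCF1 peak. In 9 regions the gap was over 100 kb. The largest, 3319044 bp, belonged to the region on chromosome 15, 21044535 to 21045257, with scores of 61.42 for BAP1 and 85.24 for OGT, and the next region of the same kind was 43126.3 kb away. It stood alone also with respect to fully shared sites, the nearest being 4238.9 kb off. The next 4, on chromosomes 13, 4, 14 and 16, had gaps of 202.5, 162.4, 159.5 and 126.4 kb. Their BAP1 scores were 114.0, 97.31, 138.67 and 65.61 and their OGT scores 72.63, 58.86, 62.66 and 51.91, and all 4 OGT scores were below the median of the OGT list.

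In some regions 1 protein stood much higher within its list than the other. On chromosome 3, 89567598 to 89568893, BAP1 scored 463.17 (percentile 95.4) and OGT 54.03 (10.4), with centres 467.5 bp apart in staggered peaks. The widest of all 295 regions, on chromosome 11, 62943657 to 62948122, was a BAP1 peak of 4466 bp with a score of 532.41 (percentile 96.7). It held an OGT peak of 638 bp with a score of 66.22 (30.7), near the OGT median of 68.31 over the 295 regions. In both regions BAP1 was above the 90th percentile of its list and OGT was below the median of its list. The other 4 regions in which the BAP1 percentile most exceeded the OGT percentile, on chromosomes 12, 7, 16 and 13, had BAP1 scores between 170.03 and 242.99 and OGT scores between 50.52 and 53.98. The third region above the 90th BAP1 percentile, noted after its values were seen, lay on chromosome 5, 115148342 to 115149808, with 350.32 for BAP1 and 77.3 for OGT. The reverse occurred on chromosome 17, 27683723 to 27685144, where OGT scored 590.79 (percentile 98.1) and BAP1 53.7 (5.59), with the BAP1 peak of 997 bp inside the OGT peak of 1422 bp. An HCF1 peak with a score of 50.34 lay 648 bp from it. On chromosomes 2, 17, 10 and 17 a further 4 regions had OGT scores between 141.99 and 303.31 and BAP1 scores between 51.16 and 66.43. The highest OGT score of all, 924.83 on chromosome 13, 101628692 to 101629749, was paired with a BAP1 score of 129.96; this region was picked out after its values were seen. Of the other wide regions, one on chromosome 10, 77596745 to 77600403, joined peaks whose centres were 1501.5 bp apart, and one on chromosome 6, 89229204 to 89231566, lay 846 bp from HCF1.

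The regions were spread over all 19 autosomes. Chromosome 2 held the most, 29 (9.83% of them, against 8.68% of all merged regions), and chromosome 19 the fewest, 8 (2.71% against 3.81%). Among regions with BAP1 and OGT, the share without HCF1 ran from 3.0% (1.38 to 5.62%) on chromosome 9 to 7.03% (3.27 to 12.9%) on chromosome 18, with overlapping intervals. Most regions stood alone. They fell in 249 windows of 1 Mb, 216 of which held 1, and the median gap to the next such region was 1414212 bp. Another lay within 100 kb of 38 regions (12.9%, 9.28 to 17.2%) and within 10 kb of 10. The fullest windows, with 4 each, were on chromosome 8 from 73000001 to 74000000 and on chromosome 11 from 117000001 to 118000000. In the first, 2 regions lay 10.7 kb apart with BAP1 scores of 65.18 and 123.17 and OGT scores of 155.01 and 61.46. In the second, 2 lay 3.8 kb apart with BAP1 scores of 242.67 and 70.06 and OGT scores of 59.81 and 76.69.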

How the data were processed

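ChIP libraries for BAP1-FLAG, HCF1 and OGT and 1 input library were made from macrophages. GSNAP, MACS 1.4 and build mm9 are named in the submitters' processing notes, with settings not given in the sources used here. Per the labels' protocols, fragments of 175 to 225 bp were selected and amplified for 18 cycles; no molecular identifiers are described. The authors deposited 1 peak list per ChIP library, with positions and a score per peak, whose definition and normalization are not given. No read totals were used, so depth is unknown, a missing HCF1 peak does not show that HCF1 was absent, and no count test was possible.

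Peaks were joined where they overlapped or were book-ended, with starts read as counted from 0 and printed from 1. Medians carry 95% order-statistic intervals and shares Clopper-Pearson intervals (Python 3.11.15, pandas 2.3.3, scipy 1.17.1). The merging and gap steps were tested on simulated data. Named regions are the 10 with the highest lower percentile, the 5 nearest to and farthest from HCF1, the 5 with the largest percentile difference each way, the 3 widest and those in the fullest 1 Mb windows. The regions and rules were chosen with earlier results of these data known. Gene positions, GC content, motifs and gene lists were planned but not analysed here, because the reference tables are in GRCm38.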

Additional observations from a re-analysis of the deposited data

Results flagged for a closer look

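Outside chromosomes 1 to 19, 8 regions also had BAP1 and OGT and no HCF1 peak; they were set aside by the rule and used in no comparison. Of these 5 lay on the X chromosome and 3 on unplaced sequence, with BAP1 scores from 50.2 to 210.83 and OGT scores from 51.37 to 238.66. On X, 3 of the 5 lay between 7225582 and 7667992, and the other two began at 45627599 and 99231962.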

How the results depend on the processing

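The depth of the libraries is unknown, and its effect on these values was not tested. In place of 295, there were 75 regions with a score of at least 100 in all lists (23 within the 295 and 52 within regions of all 3 proteins), 23 with that minimum for BAP1 and OGT only, 996 with peaks trimmed to 200 bp (206 within the 295 and 790 within regions of all 3 proteins), and 176 with HCF1 peaks widened by 5 kb; 7 other settings gave 207 to 303. In the same order of the first 3 settings, the BAP1 percentile had medians of 61.97, 57.75 and 65.20 and the OGT percentile 72.27, 72.73 and 55.49. Widths were 1383, 1234 and 279.0 bp. With a score of at least 100 in all lists the median gap to HCF1 was 14628 bp and 29.3% of regions had HCF1 within 5 kb. With that minimum for BAP1 and OGT only these were 6105 bp and 34.8%, within the main intervals. With trimmed peaks they were 219.0 bp and 87.0%, and centres were 79.0 bp apart. Reciprocal overlap of 50% gave percentiles of 35.46 and 35.96, centres 74.5 bp apart and a width of 1075 bp; centres within 250 bp gave 80.5 and 1079 bp. Settings added after the data were seen gave 2.93%, 0.897% and 30.5% of BAP1 and OGT regions without HCF1 in the order of those 3 settings. For footprints the 5 score classes were cut anew within each such setting, so they cover other score ranges than the full-width classes. The share without HCF1 in the lowest class was then 36.2% (trimmed), 3.10% (BAP1 and OGT scores of at least 100) and 18.9% (up to 1500 bp wide). In the highest class it was 34.2% (trimmed) and 3.07% (up to 1500 bp). For the other changes the cause was not tested; the stricter minimum and the overlap rules select peaks by score or position. No paired analysis was possible because there was only 1 library per target. Alternatives on genes, GC content and motifs were not run.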
